A study of Mus musculus with 6 samples.

Results

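The transcripts described here are 10 genes that mark macrophages or encode the complement component C1q, read on arrays of mouse dorsal root ganglia, where the cell bodies of sensory neurons lie among glia. The genes are Aif1, Cd68, Csf1r, Cx3cr1, C1qa, C1qb, C1qc, Mrc1, Tyrobp and Ctss. Every non-control probe whose transcript accession belongs to one of these symbols was taken, which gave 13 of 41174 probes and 9 of the 10 genes. No probe accession matched Cd68 in the gene table, so Cd68 was not analysed here. The table does not list every accession on the array, so this does not show that the array lacks a Cd68 probe. A probe was tested where some genotype had it well above background in all 3 animals, which held for 11 of the 13 and for 26248 probes in all.

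The mice were 3 wild-type (WT) and 3 dt27J animals at postnatal day 4, all of the C57BL/6 background and drawn from 2 litters, the WT animals being littermate controls. The dt27J allele is a mutation of Dst, which encodes dystonin, a large linker of the cytoskeleton, and the series calls these mice pre-phenotype. The labels give no zygosity and name no other allele or treatment for either genotype. Each animal gave 1 single-colour array. The labels carry 2 dates, the second of which holds only WT 3 and dt27J 3, and the first the other 4 arrays. Slide and scan follow the date, and the sources used here do not link dates to litters.

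Macrophages enter peripheral ganglia and nerves during development and lie beside the neurons and satellite glia, where they clear dying cells and debris. Their survival depends on CSF1R, the receptor for the growth factors CSF1 and IL-34. C1q, assembled from the A, B and C chains, starts the classical complement pathway by binding targets such as immune complexes and dying cells, and tissue macrophages are a main source of it. TYROBP (DAP12) is the signalling adaptor for TREM2 and related receptors, cathepsin S is a protease of the endosome and lysosome that processes the class II invariant chain, and AIF1 (IBA1) is a calcium-binding protein of the actin cytoskeleton used to stain macrophages and microglia.

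The share of probes well above background ran from 63.1% to 71.4% over the arrays, whose number limits the precision. Each value below is the log2 signal minus the 75th percentile of its array, so 0 is that percentile, and a level can be compared between arrays but not between probes. The 3 tested Dst probes were lower in dt27J, by -2.68, -2.42 and -2.46 (adjusted p between 0.0341 and 0.0454, limma). All 14 tested markers of sensory neurons were well above background on every array, so the labelled tissue is represented in each. These neuron markers stood on average between 0.32 and 0.38 above their 6-array mean in WT, and at -0.66, -0.47 and 0.05 in dt27J 1, 2 and 3. Of 11 tested Schwann and satellite glia genes, 3 had a positive difference (median -0.08). Markers of neighbouring tissue differed between arrays: the 12 tested spinal cord markers stood on average 1.68 and 1.62 above their 6-array mean in WT 1 and WT 2, and between -1.02 and -0.74 on the other 4 arrays. The 15 skeletal muscle markers stood at -1.56 and -1.58 in WT 1 and WT 2 and between 0.34 and 1.36 on the other 4.

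Aif1 rose in dt27J ganglia on both of its probes, and it was the 1 gene of the 9 to pass the threshold of an adjusted p of 0.05. On the brighter probe the WT arrays stood at 0.62, 0.60 and 0.40 and the dt27J arrays at 1.80, 1.51 and 1.35. Every dt27J array lay above every WT array, and the groups were separated by more than the spread within either. The rise was 1.01 (SE 0.19, n = 3 arrays per genotype), a 2.02-fold increase with a 95% interval of 1.47 to 2.77 (adjusted p = 0.0483, limma). On the dimmer probe the WT arrays stood at -1.79, -2.20 and -2.84 and the dt27J arrays at -0.26, -0.93 and -1.48, again without overlap. That probe rose by 1.39 (SE 0.25), or 2.62-fold with an interval of 1.73 to 3.97 (adjusted p = 0.0472).

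The 2 Aif1 probes gave the same order of genotypes and similar sizes. The brighter probe exceeded the dimmer one by 2.82 ± 0.41 (SD, n = 3) in WT and by 2.44 ± 0.39 in dt27J, so the spread between arrays of a genotype was as wide as the shift between genotypes. That spread includes the date, the excess being largest on the second date in WT (3.24) and in dt27J (2.83). Over the 6 arrays the probes correlated at r = 0.95, and at 0.88 in the authors' deposited values, a description of arrays that share genotype and date. The dimmer probe was lower on the second date (-0.87, unadjusted p = 0.0148, adjusted p = 0.265), in WT and in dt27J alike. The genotype difference held its size within each date: 1.04 and 0.95 on the brighter probe, and 1.40 and 1.36 on the dimmer one, for the first and second date.

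**Figure D1:**
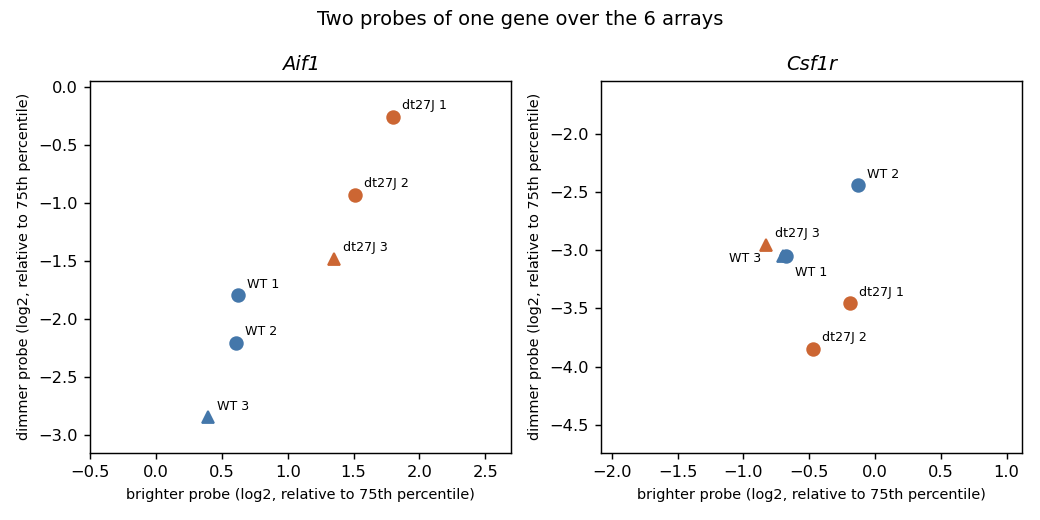
The dimmer probe (vertical axis) is plotted against the brighter probe (horizontal axis) of Aif1 (left) and Csf1r (right), as log2 signal relative to the 75th percentile of the array; circles are arrays of the first date, triangles those of the second, blue is WT and orange dt27J. The 3 dt27J arrays lie above and to the right of the 3 WT arrays for Aif1 (r = 0.95), while the Csf1r probes do not order the arrays alike (r = 0.063).

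The Aif1 calls sit close to the threshold. Among all tested probes, 3.19% passed in either direction and 1.31% passed as higher in dt27J, against 2 of the 11 member probes. An unadjusted p under 0.05 was reached by 2 of the 9 genes, Aif1 and Ctss, beside 27.7% of all tested probes. Neither Aif1 probe passed without the date term (adjusted p = 0.0674 and 0.1000) or without the filter on dim probes (0.0933 and 0.0967), and neither passed when WT 1 (0.248 on each), WT 2 (0.169 and 0.165), dt27J 1 (0.192 and 0.188) or dt27J 2 (0.103 and 0.0732) was left out. Of all tested probes 0.0533% passed without the date term, 0.00381% without WT 1, 0.64% without dt27J 2, and 0 in the other fits named. In those fits the difference lay between 0.92 and 1.58. After normexp background correction the dimmer probe stood at 0.72 and did not pass (adjusted p = 0.129), while the brighter one rose by 0.82 (0.0477). In a bulk extract, a change in the number of cells of a type and a change in RNA per cell cannot be told apart. This holds for Aif1 and for every gene below.

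The lysosomal protease gene Ctss and the mannose receptor gene Mrc1 were the next by p. The WT arrays stood at 1.83, 1.88 and 1.44 for Ctss, and the dt27J arrays at 2.78, 2.55 and 1.84. dt27J 3 lay level with WT 1 and just below WT 2, so the genotypes overlapped by 1 array. The difference was 0.67 (SE 0.20, interval of the fold 1.14 to 2.23), with an adjusted p of 0.0945 (limma), and it was 0.81 within the first date and 0.40 within the second. Mrc1, whose product CD206 takes up mannose-bearing glycoproteins, stood at -0.29, -0.19 and -0.37 in WT and at 0.06, 0.15 and 0.29 in dt27J. All 3 dt27J arrays exceeded all 3 WT arrays, as did 12.8% of all tested probes, but the difference of 0.45 (SE 0.19) gave an adjusted p of 0.185. It was 0.34 within the first date and 0.66 within the second, wider on the second date, unlike Ctss.

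**Figure D2:**
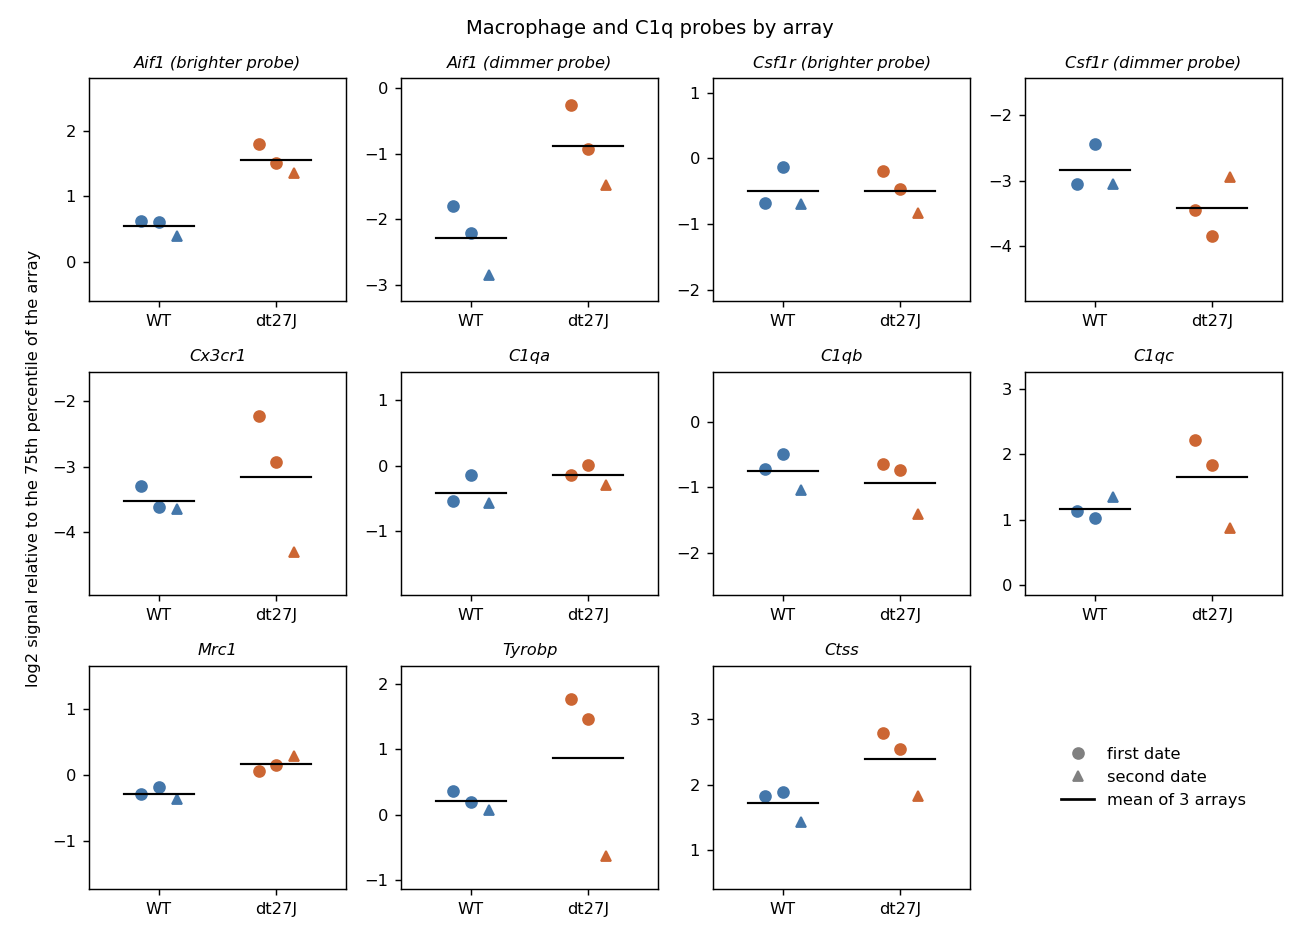
Each panel plots 1 tested probe, with the log2 signal relative to the 75th percentile of the array on the vertical axis (all panels span the same range), WT in blue, dt27J in orange, circles for the first date, triangles for the second, and a bar at the mean of 3 arrays. For both Aif1 probes and for Mrc1 the genotypes do not overlap, while for Tyrobp, Cx3cr1 and C1qc the dt27J array of the second date falls below all WT arrays.

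Tyrobp, Cx3cr1 and C1qc shared a split within the dt27J group. Tyrobp, the adaptor gene, stood at 0.36, 0.19 and 0.08 in WT, at 1.77 and 1.46 in dt27J 1 and dt27J 2, and at -0.63 in dt27J 3. The first 2 dt27J arrays were therefore the highest of the 6 and dt27J 3 the lowest. The pooled difference was 0.66 (SE 0.42, adjusted p = 0.344), from 1.34 within the first date and -0.70 within the second, and the interaction of genotype and date was -2.04 (SE 0.35, adjusted p = 0.0569). C1qc stood at 1.13, 1.04 and 1.35 in WT and at 2.22, 1.84 and 0.88 in dt27J, with the same 2 arrays highest and dt27J 3 lowest. Its pooled difference was 0.48 (SE 0.33, adjusted p = 0.377), its within-date differences 0.95 and -0.47, and its interaction -1.42 (SE 0.36, adjusted p = 0.0901). Cx3cr1 encodes the receptor for fractalkine, a chemokine that neurons carry on their surface. On its tested probe it stood at -3.30, -3.61 and -3.65 in WT and at -2.22, -2.93 and -4.30 in dt27J. The pooled difference was 0.37 (SE 0.37, adjusted p = 0.548), with 0.88 and -0.65 within the dates and an interaction of -1.52 (SE 0.50, adjusted p = 0.128).

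The interaction passed the threshold on 0 of the 11 member probes by limma, with an unadjusted p under 0.05 on 3, which are the probes of these genes, and 0.831% of all tested probes passed it. In fits that leave out either array of the second date, and so rest on the first date, 4 of the 9 genes passed: Aif1, C1qc, Tyrobp and Ctss. In the same fits 25.9% of all tested probes passed. Over the 36 pairs of the 9 genes, r across the 6 arrays ran from -0.38 to 0.97 with a median of 0.60, and was 0.97 for Cx3cr1 with Tyrobp, 0.94 for C1qc with Tyrobp and 0.88 for Aif1 with Ctss; the arrays share genotype and date.

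The other C1q chain genes, C1qa and C1qb, did not pass the threshold either. The C1qa arrays stood at -0.53, -0.14 and -0.56 in WT and at -0.14, 0.02 and -0.30 in dt27J, with WT 2 inside the dt27J range. The difference was 0.27 (SE 0.20, adjusted p = 0.413, limma, interval of the log2 difference -0.21 to 0.75), at 0.28 and 0.26 within the dates. C1qb stood at -0.72, -0.49 and -1.04 in WT and at -0.65, -0.74 and -1.41 in dt27J, so the genotypes overlapped over most of their range. It differed by -0.18 (SE 0.20, adjusted p = 0.579, interval of the log2 difference -0.64 to 0.29), and by -0.09 and -0.37 within the dates. The 3 chain genes are direct neighbours in the gene table, in the order C1qb, C1qc, C1qa, with no other listed gene between them. In the first date, where C1qc stood 0.95 higher in dt27J, C1qa stood 0.28 higher and C1qb -0.09, each on its single probe, so which part of that contrast lies in the probes was not tested.

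Csf1r, the growth factor receptor gene, had 3 probes that did not move together. Its brightest probe stood at -0.67, -0.13 and -0.70 in WT and at -0.19, -0.47 and -0.83 in dt27J, with complete overlap. The difference was 0.01 (SE 0.23, adjusted p = 0.987), and the 95% interval of -0.54 to 0.55 leaves room for a change of 1.46-fold upward. The second probe stood at -3.05, -2.44 and -3.05 in WT and at -3.45, -3.85 and -2.95 in dt27J, a difference of -0.57 (SE 0.30, adjusted p = 0.269). On that probe dt27J 1 and dt27J 2 were the lowest arrays and dt27J 3 lay among the WT arrays. These probes correlated at r = 0.063 over the 6 arrays. The third Csf1r probe was well above background on 1 of 6 arrays, and the second Cx3cr1 probe on 2 of 6, so neither was tested.

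**Figure D3:**
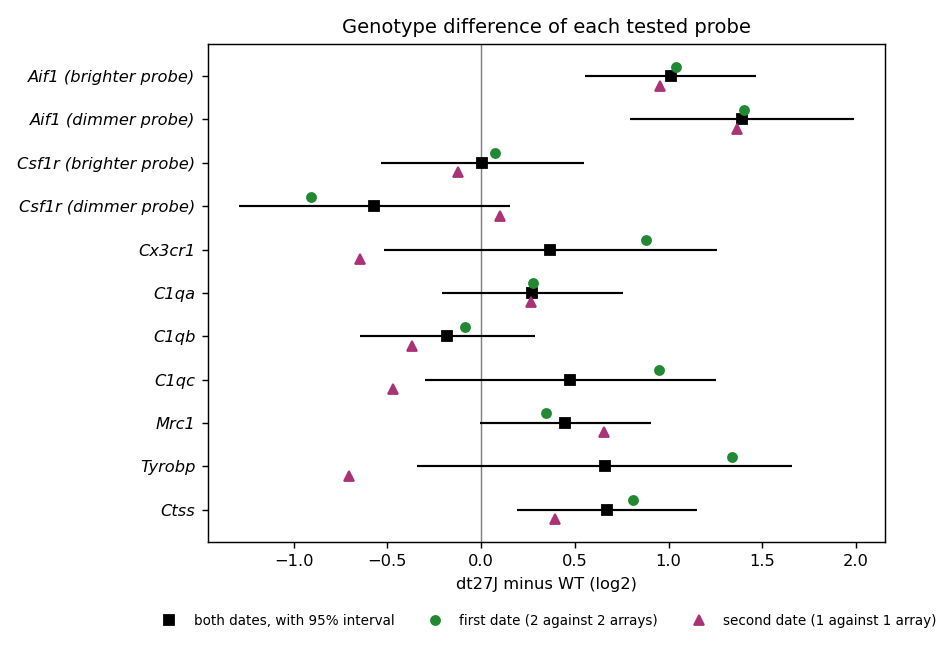
The horizontal axis is dt27J minus WT in log2 for each tested probe; squares with lines are the estimates over both dates with 95% intervals, circles the first date (2 against 2 arrays) and triangles the second (1 against 1). The dates coincide for Aif1 and C1qa and lie on opposite sides of 0 for Tyrobp, C1qc, Cx3cr1 and both Csf1r probes.

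As a group, 8 of the 9 genes had a positive difference on their brightest probe, with a median of 0.45, beside 47.6% positive and a median of -0.03 over all 13675 tested symbols. By probe, 9 of 11 were positive, beside 46.4% of all tested probes, and 5 of 11 were positive within both dates, beside 24.5%. The median was 0.81 within the first date, where 8 of 9 were positive, and -0.13 within the second, where 4 of 9 were positive: Aif1, Mrc1, Ctss and C1qa. Over all tested symbols those medians were 0.03 and -0.15. The summed signal of the 9 genes, in multiples of the 75th percentile, was 11.4, 11.9 and 10.3 in the WT arrays, 22.1 and 18.6 in dt27J 1 and dt27J 2, and 11.6 in dt27J 3. In this sum, which the brightest probes dominate, dt27J 3 lay inside the WT range. By the mean deviation per gene it was the lowest of the 6 arrays, at -0.348 beside -0.344 in WT 3.

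Aif1 and C1qc carry in their upstream sequence the purine-rich PU box, the letters GAGGAA that the myeloid transcription factor PU.1 is known to bind, and so does C1qb. Aif1 is shown as the gene that passed the test, and C1qb and C1qc as neighbouring chain genes that did not. Each line gives the 250 bases before the annotated start, 5′ to 3′ on the gene's own strand, from RefSeq on GRCm38.p6, with matches to the box on either strand in capitals. The Aif1 stretch is chr17:35176053-35176302, the C1qb stretch chr4:136886201-136886450 and the C1qc stretch chr4:136892915-136893164, all on the minus strand.
Aif1: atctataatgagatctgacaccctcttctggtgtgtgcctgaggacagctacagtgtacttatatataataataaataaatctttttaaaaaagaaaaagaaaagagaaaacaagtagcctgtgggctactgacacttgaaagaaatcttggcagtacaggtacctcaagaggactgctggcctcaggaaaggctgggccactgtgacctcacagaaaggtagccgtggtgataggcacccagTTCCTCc
C1qb: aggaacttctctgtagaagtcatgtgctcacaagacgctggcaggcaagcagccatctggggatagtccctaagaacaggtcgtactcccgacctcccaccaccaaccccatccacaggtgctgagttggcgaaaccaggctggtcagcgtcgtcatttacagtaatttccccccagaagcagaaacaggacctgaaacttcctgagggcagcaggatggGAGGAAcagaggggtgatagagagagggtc
C1qc: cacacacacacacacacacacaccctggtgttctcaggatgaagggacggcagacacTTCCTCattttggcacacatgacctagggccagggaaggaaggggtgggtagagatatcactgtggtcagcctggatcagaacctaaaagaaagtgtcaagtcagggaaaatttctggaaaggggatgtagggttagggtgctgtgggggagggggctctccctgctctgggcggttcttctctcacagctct
Counted from the start, the match begins at position -7 in Aif1, -30 in C1qb and -193 in C1qc. The sequence table held 7 of the 10 genes, and the 6 letters were found in 6 of them, Cx3cr1 being without a match, beside 23.3% of all 32851 stretches of this length. The longer forms GAGGAAG and GAGGAAGT, which contain the shorter one, were found in 2 (Mrc1 and C1qc) and 1 (C1qc), beside 10.6% and 2.44% of all stretches. The letters were chosen with the results known, and a match is not a binding site.

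Among 36 other macrophage genes, 32 were tested and 26 had a positive difference, with a median of 0.60, at 0.74 within the first date and 0.14 within the second. On the brightest probe of each gene, 4 rose and 0 fell: Mertk (1.56, SE 0.25) and Axl (1.15, SE 0.20), receptors for the uptake of dying cells, Mpeg1, a pore-forming protein of phagocytes (1.14, SE 0.20), and Cd74, the class II invariant chain that cathepsin S cleaves (0.97, SE 0.19), with adjusted p values from 0.0446 to 0.0499 (limma). Each of these was also higher within both dates, from 0.99 to 1.52 in the first and from 0.93 to 1.63 in the second. An unadjusted p under 0.05 was reached by 15 genes that were higher and 2 that were lower. Of all tested probes, 12% were higher at that threshold and 27.7% reached it in either direction. Those shares apply to the unadjusted counts of the lists below as well. By adjusted p, 1.31% of all tested probes passed as higher in dt27J and 1.88% as lower. These 2 shares apply to the counts of genes past the threshold here and below. The pan-leukocyte actin regulator gene Coro1a stood at -0.85 (adjusted p = 0.0621), and the brightest, Ly86, at -0.62 (adjusted p = 0.165). Also negative were H2-Ab1, Lyve1, Laptm5 and Lgals3, between -0.41 and -0.15. The summed signal of the 32 genes lay between 64.5 and 67.0 in WT and between 57.8 and 64.5 in dt27J, the opposite order to the median. The brightest probes dominate this sum, and the brightest genes, Ly86 and Coro1a, both had a negative difference. By the mean deviation per gene the WT arrays lay between -0.42 and -0.11, and dt27J 1, 2 and 3 stood at 0.59, 0.36 and -0.24. H2-Ab1, a class II chain gene, stood at -0.41 on its brightest probe (adjusted p = 0.245), but fell by 1.24 (adjusted p = 0.0475) on another and stood at -0.98 (0.0565) on the third. H2-Aa, another class II chain gene, went the other way. It stood at 0.79 on its brightest probe and at 1.06 on its other (adjusted p = 0.111 and 0.0995, limma). The Fc receptor gene Fcgr2b rose by 1.21 (adjusted p = 0.0472) on a dimmer probe and stood at 0.58 (adjusted p = 0.155) on its brightest.

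Of 10 tested genes of a list around CSF1, 0 passed by limma and 2 were higher and 1 lower at an unadjusted p under 0.05, with a median of 0.14. The list also holds Csf1r itself, myeloid regulators and receptor genes of GM-CSF, another growth factor, among them Csf2rb. The myeloid transcription factor gene Irf8 stood at 0.72 (adjusted p = 0.0851), Csf2rb at 0.64 (0.135), Runx1 at -0.58 (0.150) and the adaptor gene Grb2, the brightest, at -0.34 (0.3001). The ligand genes were Il34 at 0.65 and Csf1 at -0.20 (adjusted p = 0.192 and 0.527). Il34 followed the split of Tyrobp, at 1.05 within the first date and -0.15 within the second. Of 12 tested genes of TYROBP signalling, 0 passed and 4 were higher at an unadjusted p under 0.05 (median 0.51). Trem2, which encodes the receptor that TYROBP serves, stood at 1.04 (SE 0.25, adjusted p = 0.0652), the kinase gene Lyn at 0.90 (0.0691) and the exchange factor gene Vav1 at 0.52 (0.139). Trem2 was higher in both dates, at 1.32 and 0.48.

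Downstream of C1q, none of 12 tested complement genes and none of 10 regulators passed by limma, with 2 higher and 1 lower, and 1 higher and 1 lower, at an unadjusted p under 0.05. The C1 protease genes C1s1 and C1ra stood at 1.17 and 1.04 (adjusted p = 0.128 and 0.211), with 1.82 and 1.82 within the first date and -0.14 and -0.52 within the second. C4b, the next component of the cascade, stood at -0.76 (adjusted p = 0.0894), Cfb of the alternative pathway at 0.83 (0.105) and C2, the brightest, at 0.77 (0.299). C1s1 and C2 thus repeated the split between dates seen for C1qc, and C4b did not. Among the regulators clusterin (Clu) stood at -0.76 (adjusted p = 0.0651), the phagocyte and endothelial receptor gene Cd93 at 0.69 (0.0831) and Cr1l at 0.81 (0.299), and the brightest, Vtn, at 0.41 (0.301). The other tested probe of Cd93 stood at 0.14 (adjusted p = 0.654, limma).

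Among 16 tested genes of cathepsins, their inhibitors and their substrate, Cd74 was the 1 that passed, and the median was 0.11. Ctsc stood at 0.97 (SE 0.25, adjusted p = 0.0696), Ctsh at 0.54 (0.204) and Ctsl, the brightest, at -0.44 (0.212). The broadly expressed Ctsb and Ctsd stood at -0.02 and -0.04 on their brightest probes, and at -0.26 and -0.76 on their other ones, and differences between cathepsins were not tested. Of 12 tested genes of fractalkine and the chemokines, 11 had a positive difference (median 0.94, at 1.37 and 0.11 within the dates). Ccr2, the receptor that recruits monocytes, rose by 1.46 (SE 0.21), its ligand gene Ccl7 by 1.23 (SE 0.19) and Cxcr4 by 1.52 (SE 0.28), with adjusted p values of 0.0420, 0.0440 and 0.0477 (limma). The other tested probe of Cxcr4 stood at 0.76 (SE 0.60, adjusted p = 0.443, limma) and did not pass, while that of Ccl7 passed. The fractalkine gene Cx3cl1, the ligand of CX3CR1, was the 1 with a negative difference (-0.66, adjusted p = 0.153), and Cxcl12, the brightest, stood at 0.59 (0.459). Cytokine transcripts were mostly dim: 3 of 10 were tested, 0 passed at either the adjusted or the unadjusted threshold, and Il1b stood at 0.91 (adjusted p = 0.269), Arg1 at -0.44 (0.572) and Tgfb1 at 0.10 (0.815).

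Markers of other cells, some of which share these transcripts, were read in the same fit. Microglia of the spinal cord express most of the 9 genes, and the 8 tested microglial genes were well above background on every array but WT 3, where 7 were. Their summed signal ran from 20.1 to 29.7 in WT and from 20.8 to 29.8 in dt27J, and none is at 0. Of these 8, 0 passed by limma, with 2 higher and 1 lower at an unadjusted p under 0.05: Tmem119 stood at 0.87 (adjusted p = 0.0697), Fcrls at 0.53 (0.162) and Sall1 at -0.79 (0.0778). P2ry12 stood at -0.45 (adjusted p = 0.285). Spinal cord markers, high in WT 1 and WT 2, summed to 5.35 to 30.2 in WT and 5.74 to 9.83 in dt27J.

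All 7 tested monocyte genes had a positive difference (median 0.78), with Ccr2 the 1 that rose, Chil3 at 0.88 (adjusted p = 0.0662) and Ly6c2, the brightest, at 0.88 (0.0975). Their summed signal was 5.70 to 8.12 in WT, 17.3 and 17.9 in dt27J 1 and dt27J 2, and 6.88 in dt27J 3. Of 12 tested granulocyte and mast cell genes, 11 had a positive difference (median 0.88); Mmp8 rose by 1.38 (SE 0.24, adjusted p = 0.0472), S100a8 stood at 0.95 (0.0578), Camp at 0.96 (0.0771) and S100a9, the brightest, at 0.50 (0.240). The 4 tested erythroid genes, with 0 past the threshold by limma or at an unadjusted p under 0.05, summed to 259 to 360 in WT, 571 and 513 in dt27J 1 and dt27J 2, and 255 in dt27J 3, with Hbb-bt at 0.60 (adjusted p = 0.266). The 10 endothelial genes were all positive (median 0.78, 0.57 within the second date), and Tek rose by 1.63 (SE 0.29, adjusted p = 0.0472), with Cdh5 at 1.02 (0.0626) and Vwf at 0.96 (0.0635). The endothelial mean deviation was 0.10 in dt27J 3, above all WT arrays, where the macrophage and C1q members were at -0.35. Of 8 tested lymphocyte genes, 2 were positive, 0 passed the threshold, and Klrb1c, the brightest, stood at -1.30 (adjusted p = 0.0543); 2 were higher and 1 lower at an unadjusted p under 0.05. The part of blood, vessels, spinal cord, muscle or neuron content in the values of the 9 genes was not tested.

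**Figure D4:**
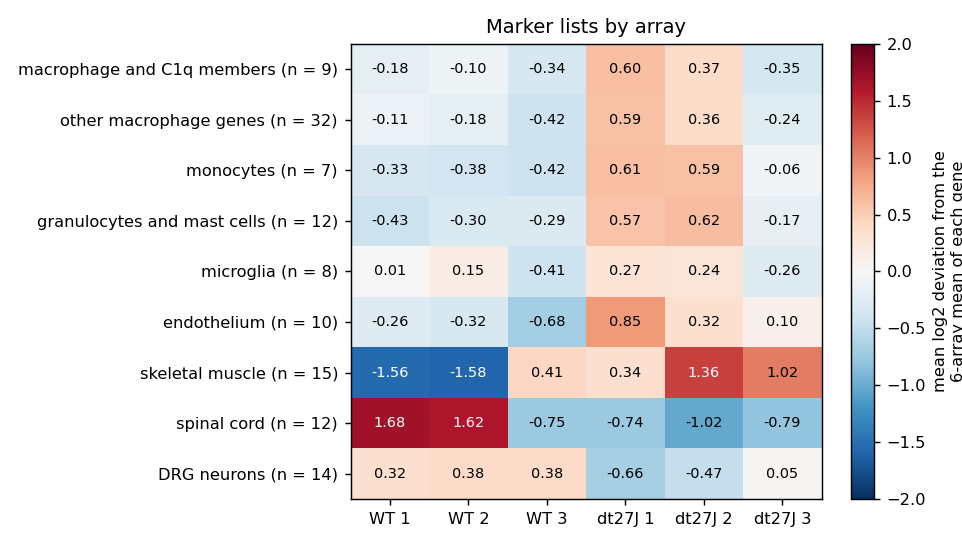
Each row is a list of marker genes and each column an array; a cell gives the mean, over the tested genes of the list, of the log2 deviation from the 6-array mean of each gene, from blue (lower) to red (higher). The macrophage and C1q members stand at 0.60 and 0.37 in dt27J 1 and dt27J 2 and at -0.35 in dt27J 3, beside monocytes at 0.61, 0.59 and -0.06 and spinal cord markers at 1.68 and 1.62 in WT 1 and WT 2.

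The symbols whose levels over the 6 arrays were most like those of Aif1 were Arhgef3, Arl5a, Mylip, Bhlhe22, Stxbp6, Sertad4, Meox1 and Erbb2, with r of at least 0.994 among 8690 symbols compared. Their genotype differences ran from 0.53 to 1.73. With 6 arrays such values are common: 596 symbols had r above 0.9 with Aif1. Those most like the mean of C1qa, C1qb and C1qc were Abcc3, Cst13, Rexo5, Col6a2, Man2b1, Slc50a1, Exosc4 and Ccnd2, with r from 0.98 to 0.99, and 432 symbols had r above 0.9. Their differences ran from 0.18 to 0.58, with adjusted p values between 0.325 and 0.642 (limma). No symbol was in both lists of 8.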

How the data were processed

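Total RNA from the ganglia of 6 mice, 3 per genotype, was labelled with Cy3 and hybridised to 1 Agilent array per animal, per the labels' protocols. Per the file headers, the deposited processed signal is an intensity from Agilent Feature Extraction 10.5.1.1, background-subtracted and detrended within the array and not normalized between arrays. The deposited raw intensity, for spots and local background, served an alternative. Values in the authors' deposited table are log2, with every probe median-centred; the sources used here do not state their normalization.

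Outlier spots were dropped, the spots of a probe averaged, and log2 values taken minus the array's 75th percentile (signal 369.5 to 580). A probe was tested if some genotype had it well above background in all 3 animals (26248 of 41086 complete ones; 0 saturated spots). limma 3.58.1 in R 4.3.3 fitted genotype and date, with Benjamini-Hochberg adjustment over all tested probes and 3 residual plus 3.74 prior degrees of freedom; a second fit held their interaction. The fit was tested on simulated data with less noise than the arrays, larger changes than those of Aif1 and no date effect. That test does not bear on calls near the threshold. Probes were named by unversioned accession through a RefSeq table of GRCm38.p6 (24844 of 41174). A gene is read on its brightest tested probe.

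Members, lists and tests were chosen with earlier results of these data known. Named are all member probes; in each list the genes past the threshold or else the 3 with the smallest p, and the brightest; and the 8 symbols most like Aif1 and the C1q mean, among those above background on all 6 arrays with an SD of at least 0.3. Lists of muscle, spinal cord, neurons and glia are given as levels or counts, and of lymphocytes and erythroid cells by their brightest gene. 1 gene under this rule is not reported here. Coro1a, H2-Ab1, H2-Aa, Fcgr2b, Lyve1, Laptm5, Lgals3, Il34, Csf1, C1ra, Ctsb, Ctsc, Ctsd, Ctsh, Cx3cl1, P2ry12, Chil3, S100a8, Camp and Vwf fall outside that rule and were chosen after their values were seen. Alternatives covered normalization, background, filter, date term, array weights, the deposited table and single arrays.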

Additional observations from a re-analysis of the deposited data

How the results depend on the processing

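Of 187 values of single member probes under the alternatives, 151 kept their direction and their side of the threshold, 15 lost the call, 16 gained one and 5 turned sign. Those that turned sign were of the brightest Csf1r probe, at 0.01 in the main analysis, and of C1qb, at -0.18 there. The Csf1r probe stood at -0.0030 after normexp background correction with high local backgrounds replaced (chosen after seeing the data). It stood at -0.00085 with the authors' values. Over the fits without 1 array each it lay between -0.17 (without WT 1, and -0.091 without dt27J 1) and 0.14. C1qb stood at 0.0067 with array weights. The count of genes past the threshold, 1 in the main analysis, was 0 without the date term, without the filter on dim probes and with the replicate number as a block, 7 with array weights and 4 with the first date only; for probes, 2 in the main analysis, these counts were 0, 0, 0, 9 and 5, and 1 after normexp correction. At an unadjusted p under 0.05 those counts of 0 genes stood beside 1, 3 and 2 genes. Leaving out 1 array at a time gave 0 to 4 genes, 0 to 5 probes and a median between 0.32 and 0.81. The median over the 9 genes was -0.13 with the second date only, an untested value added after seeing the data. Array weights did not converge fully and called 46.5% of all probes; the cause was not tested. Same-numbered arrays of the 2 genotypes deviated together at r = 0.22, -0.15 and 0.062, and arrays of different number between -0.29 and 0.23. With 3 arrays per genotype, these values cannot decide whether the numbers pair the animals. The replicate block called 2 of all tested probes and neither Aif1 probe (adjusted p = 0.115 and 0.110, limma). With 3 arrays per genotype, their number limits the precision.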
